A study of Mus musculus with 2 samples.

Results

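The membrane mucins taken as members here were 5 genes, Muc1 (ENSMUSG00000042784), Muc4 (ENSMUSG00000079620), Muc20 (ENSMUSG00000035638), Muc16 (ENSMUSG00000109564) and Muc13 (ENSMUSG00000022824), of 479 genes measured. They were taken by name, as the rows of these genes in both files. They are not all the membrane mucins of the panel, which also holds Muc3a and Muc15. RNA was counted in place by Xenium In Situ, an imaging method that decodes single transcripts and assigns them to segmented cells, in 1 section of RKP tumour and 1 section of EKP tumour. Both lines had been grown in culture, mixed with Matrigel, a basement membrane gel, and injected under the skin of C57BL/6 mice 5 weeks old, and the tumours, labelled diffuse gastric cancer, shared 1 paraffin block. The labels leave RKP and EKP unexplained. They link the mutant RHOA of the series title to neither line, and give no number of clones or animals behind a section. With 1 section a group there is no replicate and no test: every difference below is a difference between these sections, and the 95% intervals cover counting error only.

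The RKP section held 255744 segmented cells with 44294494 gene counts, and the EKP section held 261111 cells with 31597828. The median cell had 154 gene counts in RKP and 84 in EKP, and 8.07% of RKP cells and 38% of EKP cells had under 40. Cells with 40 or more counts, 235115 in RKP and 161996 in EKP, had a median of 165 in both sections. They were split by their count of Epcam, the epithelial cell adhesion molecule, into 0-1, 2-4 and 5 or more. The last bin held 73160 RKP cells (31.1%) and 42805 EKP cells (26.4%), with 51304 and 52599 Epcam counts per 1000000 gene counts (CPM) in RKP and EKP and 41172 and 48391 CPM of the simple epithelial keratin Krt8. A negative control probe, which matches no mouse transcript, averaged 0.786 CPM in RKP and 2.5 CPM in EKP. The files share 19 cell names, none with identical counts.

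Membrane mucins are long, heavily O-glycosylated proteins that stand on the apical surface of epithelial cells, where they form part of the glycocalyx and keep microbes and other cells at a distance. Their cytoplasmic tails and extracellular EGF-like or SEA domains also take part in signalling: MUC1 is phosphorylated by receptor kinases, MUC4 binds the receptor ERBB2, MUC16 carries the tumour antigen CA125 and binds mesothelin, and human MUC20 was described as a partner of the MET receptor. In carcinomas, apical restriction is often lost and the mucins cover the whole cell surface.

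The promoters of Muc1, Muc4 and Muc20 are shown because these 3 members carried nearly all of the mucin counts, and because Muc4 and Muc20 are neighbours whose levels went together. All 5 members matched RefSeq by symbol. In GRCm38.p6, Muc4 (plus strand) and Muc20 (minus strand) overlap on chromosome 16 as annotated; Muc13 lies on the same chromosome beyond 12 protein-coding genes, 0 of them on the panel, Muc1 lies on chromosome 3 and Muc16 on chromosome 9. The sources used here give no probe positions, so whether Muc4 and Muc20 probes lie in the overlap is unknown. The windows are the 250 bases before the RefSeq start of each gene, at chr3:89228806-89229055 on the plus strand for Muc1, chr16:32735636-32735885 on the plus strand for Muc4 and chr16:32797436-32797685 on the minus strand for Muc20. Capitals mark matches, on either strand, to TATAAA (the TATA box), GGGCGG (the GC box), CACCTG (an E-box) and CCAAT.
Muc1: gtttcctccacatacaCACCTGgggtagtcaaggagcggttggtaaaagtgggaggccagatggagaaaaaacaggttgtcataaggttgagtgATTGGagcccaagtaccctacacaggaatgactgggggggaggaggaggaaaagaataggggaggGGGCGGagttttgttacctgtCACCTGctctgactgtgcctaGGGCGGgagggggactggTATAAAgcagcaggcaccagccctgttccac
Muc4: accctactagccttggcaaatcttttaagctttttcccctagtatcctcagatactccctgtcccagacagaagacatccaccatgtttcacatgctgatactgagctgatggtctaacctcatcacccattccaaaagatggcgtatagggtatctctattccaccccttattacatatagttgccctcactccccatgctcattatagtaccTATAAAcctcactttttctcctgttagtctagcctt
Muc20: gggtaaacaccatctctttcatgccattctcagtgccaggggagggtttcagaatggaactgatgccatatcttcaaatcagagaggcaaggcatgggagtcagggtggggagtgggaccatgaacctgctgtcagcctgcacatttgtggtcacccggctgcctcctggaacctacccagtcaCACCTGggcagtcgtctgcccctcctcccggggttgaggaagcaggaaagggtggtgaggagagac
The Muc1 window held TATAAA with its first base 31 bases before the start, GGGCGG at 91 and 49, CACCTG at 234 and 70, and CCAAT, on the other strand, at 156. The Muc4 window held TATAAA at 36 and no other match, and the Muc20 window held CACCTG at 66 and no other match. Of 32851 such windows in RefSeq, 12.4% held TATAAA, 32.7% GGGCGG, 17.2% CACCTG and 33.8% CCAAT. Muc4 and Muc20 thus had no motif of these 4 in common, and the matches are letters in a window, not sites.

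Across the whole sections, the 5 members together made up 1.55% of gene counts in RKP and 0.702% in EKP. Muc4 stood at 7891 CPM in RKP and 2146 CPM in EKP, a ratio of RKP over EKP of 3.68 (3.65 to 3.71). Muc20 stood at 1040 CPM in RKP and 246 CPM in EKP, a ratio of 4.23 (4.13 to 4.33). Both were more than 2-fold higher in RKP, the fold used here as a rule of size. Muc1, the most widely expressed epithelial mucin, stood at 6517 CPM in RKP and 4446 CPM in EKP, a ratio of 1.47 (1.46 to 1.48), under the 2-fold limit. Muc16 stood at 25.8 CPM in RKP and 123 CPM in EKP, a ratio of 0.209 (0.196 to 0.224), and Muc13 at 19.6 CPM in RKP and 61.3 CPM in EKP, a ratio of 0.32 (0.295 to 0.347). These 2 rare members were the ones more than 2-fold higher in EKP. Of the 5 members, 2 passed 2-fold toward RKP and 2 toward EKP, and their median log2 ratio was 0.55. Among the 477 genes kept, 8.18% passed it toward RKP and 34.8% toward EKP, and the median was -0.43. In sums over a section, fewer epithelial cells and less RNA per cell cannot be told apart, so the values below are given by Epcam count.

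Muc4 and Muc20 kept their difference in every Epcam bin. At 5 or more Epcam counts, Muc4 stood at 16398 CPM in RKP and 4793 CPM in EKP, a ratio of 3.42 (3.39 to 3.45), and Muc20 at 2125 CPM in RKP and 494 CPM in EKP, a ratio of 4.3 (4.18 to 4.42). At 2-4 Epcam counts, Muc4 stood at 4899 CPM in RKP and 1318 CPM in EKP (ratio 3.72), and Muc20 at 731 CPM in RKP and 144 CPM in EKP (ratio 5.1). At 0-1 Epcam counts, Muc4 stood at 575 CPM in RKP and 199.7 CPM in EKP (ratio 2.88), and Muc20 at 86.2 CPM in RKP and 32.7 CPM in EKP (ratio 2.64). Both genes were thus more than 2-fold higher in RKP in each of the 3 bins. In the lowest bin this rested on the filter: with cells of 20 or more gene counts in place of 40, the log2 ratio there was 0.88 for Muc4, against 1.52, and 0.57 for Muc20, against 1.40.

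Muc1 differed less. It stood at 13073 CPM in RKP and 10168 CPM in EKP at 5 or more Epcam counts, a ratio of 1.29 (1.28 to 1.29), and its ratio was 1.56 (1.52 to 1.6) at 2-4 and 1.17 (1.14 to 1.2) at 0-1. By number of counts, Muc4 came before Muc1 in the Epcam-high cells of RKP, with 310263 counts of Muc4 and 247348 of Muc1, while Muc1 came first in EKP, with 117610 counts of Muc1 and 55447 of Muc4. The level of a gene depends on its own probes, so only the turn of the order between sections can be read, not which gene is the more abundant.

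Muc16 went the other way at every Epcam count. At 5 or more it stood at 47.1 CPM in RKP and 159 CPM in EKP, a ratio of 0.296 (0.273 to 0.32). At 2-4 it stood at 15.7 CPM in RKP and 74.8 CPM in EKP, a ratio of 0.21 (0.162 to 0.269). At 0-1 it stood at 7.18 CPM in RKP and 37.5 CPM in EKP, a ratio of 0.191 (0.158 to 0.231). In that bin of EKP, Muc13 (31.5 CPM) and Muc20 (32.7 CPM) stood close to Muc16. The ratios of Muc16 and Muc20 at 0-1 thus rest on EKP levels near that of Muc13 and are read with caution. Msln, mesothelin, the partner of Muc16, stood at 23349 CPM in RKP and 19027 CPM in EKP at 5 or more Epcam counts. Msln was thus abundant in both sections and under 2-fold apart. Muc13 showed no single direction: its ratio was 1.45 (1.18 to 1.8) at 5 or more, on 307 counts in RKP and 129 in EKP, 1.23 (0.932 to 1.65) at 2-4, and 0.622 (0.542 to 0.713) at 0-1.

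In each Epcam bin, Muc4 and Muc20 (2 members) passed 2-fold toward RKP and Muc16 (1 member) toward EKP. Over all genes kept, the shares past 2-fold toward RKP and toward EKP were 12.8% and 26.6% at 0-1 Epcam counts, 16.9% and 24.9% at 2-4, and 16.6% and 22.7% at 5 or more.

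**Figure D1:**
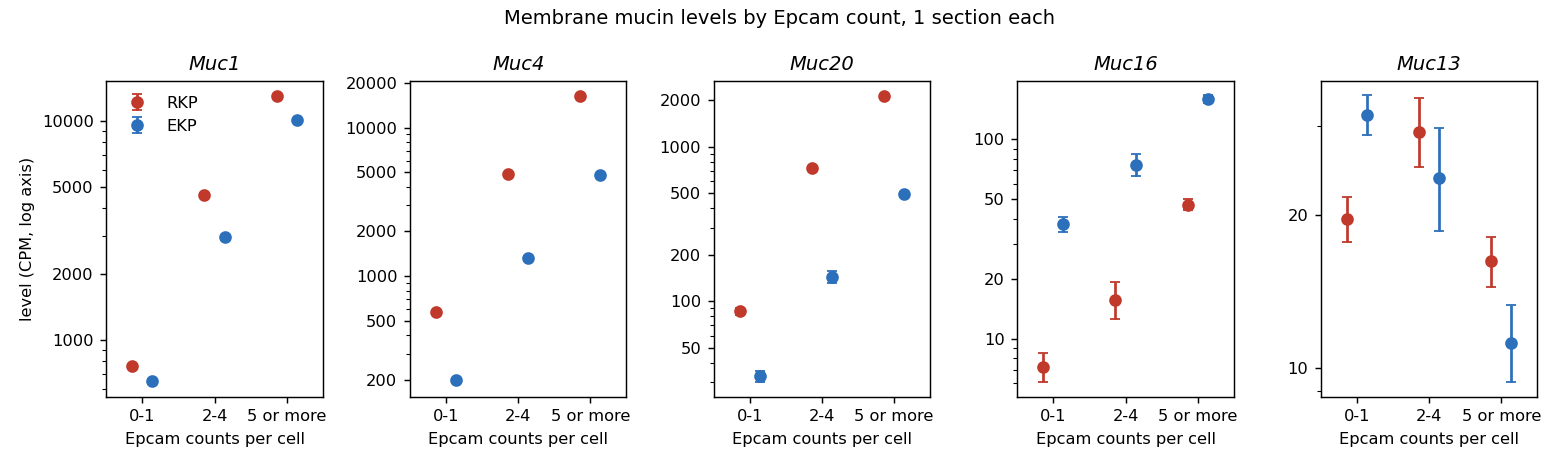
Level of each membrane mucin in counts per 1000000 gene counts (CPM, log axes that differ between panels) in cells with 0-1, 2-4 and 5 or more Epcam counts, in the RKP section and the EKP section; bars are exact 95% Poisson intervals. Muc4 and Muc20 lay higher in RKP and Muc16 higher in EKP in all 3 bins, 4 members were higher at each step of Epcam in both sections, and Muc13 was not.

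Within each section, 4 of the 5 members were far higher in Epcam-high cells. Between 5 or more and 0-1 Epcam counts, Muc4 differed 28.5-fold in RKP and 24-fold in EKP, Muc20 24.7-fold in RKP and 15.1-fold in EKP, and Muc1 17.1-fold in RKP and 15.6-fold in EKP. Muc16 differed 6.55-fold in RKP and 4.25-fold in EKP. Muc13 stood below 1 in both, at 0.828 (0.71 to 0.965) in RKP and 0.354 (0.289 to 0.431) in EKP. For scale, the ratio was 3.79 in RKP and 5.13 in EKP for Krt8 and 7.88 in RKP and 14.7 in EKP for Cdh1, the epithelial cadherin, so that Muc1 and Muc4 had higher ratios than both markers in each section. Muc20 did so in RKP, while in EKP its interval (13.8 to 16.6) held the value of Cdh1. Of all genes kept in this comparison, 16.9% were at least 2-fold higher in the Epcam-high cells of RKP and 14.1% in those of EKP.

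Detection was compared after each cell had been thinned at random to 40 gene counts, since depth alone changes the share of cells with a count. At 5 or more Epcam counts, Muc4 was detected in 43.9% of thinned RKP cells (43.5 to 44.2) and 14.9% of EKP cells (14.5 to 15.2), and Muc20 in 7.94% of RKP cells (7.74 to 8.13) and 1.84% of EKP cells (1.71 to 1.97). Muc1 was detected in 38% of RKP cells and 31.1% of EKP cells, and Muc16 in 0.16% of RKP cells (0.132 to 0.192) and 0.596% of EKP cells (0.525 to 0.673). Without thinning, at a median of 241 gene counts in RKP and 261 in EKP, the shares were 83.5% of RKP cells and 41.9% of EKP cells for Muc4, 35.8% and 10.2% for Muc20, 83% and 79.6% for Muc1, and 1.15% and 3.92% for Muc16. Most Epcam-high cells of both sections thus held Muc1, Muc4 was found in most of those of RKP and in a minority of those of EKP, and Muc16 was rare in both.

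These shares were set against cells that should lack the genes. In fibroblast-gated cells, with a median of 138 gene counts in RKP and 149 in EKP, thinned detection was 2.61% in RKP and 1.69% in EKP for Muc1, 1.71% and 0.543% for Muc4, 0.259% and 0.0532% for Muc20, and 0.0268% and 0.0638% for Muc16. Epcam-high cells lay well above these levels for the 4 members. At 0-1 Epcam counts, thinned detection was 3.22% in RKP and 2.64% in EKP for Muc1, 2.5% and 1.21% for Muc4, 0.427% and 0.226% for Muc20, and 0.0325% and 0.236% for Muc16. In RKP these lay less than 2-fold above the fibroblast shares. In EKP, Muc4, Muc20 and Muc16 stood more than 2-fold above the fibroblast shares, and Muc16 lay between these and the Epcam-high share. Muc13 at 0-1 Epcam counts in EKP also stood more than 2-fold above its fibroblast share, at 0.217% against 0.0922%. Muc13 was detected in 0.0847% of Epcam-high cells in RKP and 0.0467% in EKP, at or below its fibroblast level of 0.112% in RKP and 0.0922% in EKP, so over that bin as a whole it is read as background.

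The members also differed in how evenly they were spread over Epcam-high cells. Muc4 had 0 counts in 16.5% of RKP cells and 58.1% of EKP cells, where counting error alone at the mean level would give 4.47% in RKP and 31.4% in EKP. Its spread beyond counting error, as a coefficient of variation, was 0.648 in RKP and 1.55 in EKP, and that of Muc20 was 0.785 in RKP and 1.89 in EKP. Muc1 had about the same spread in both, 0.648 in RKP and 0.611 in EKP. So had Krt8 (0.287 in RKP and 0.339 in EKP) and Cdh1 (0.328 and 0.354). The non-mucin genes Prom1 (0.523 in RKP and 0.947 in EKP) and Cldn2 (0.592 and 1.97) also had a wider spread in EKP, so this was not particular to Muc4 and Muc20. The rare Muc16 (2.57 in RKP and 2 in EKP) and Muc13 (14 and 2.83) went the other way. The tenth of Epcam-high cells with the most Muc4 held 31% of its counts in RKP and 56.8% in EKP, and single cells reached 43 counts in both sections. Muc4 counts were thus spread over most Epcam-high cells of RKP and concentrated in a minority of those of EKP. Leaving out gland-like cells, described below, gave a spread of 0.664 for Muc4 and 0.798 for Muc20 in RKP.

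**Figure D2:**
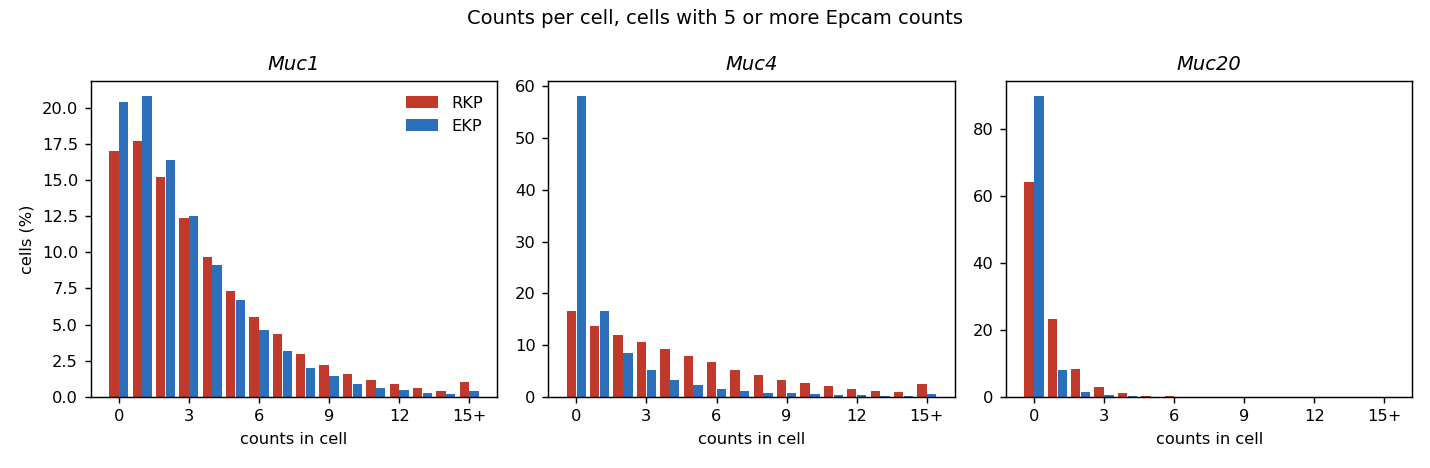
Share of cells, in percent, by the number of Muc1, Muc4 and Muc20 counts in the cell, among cells with 5 or more Epcam counts, 73160 in the RKP section and 42805 in the EKP section; the last bar pools 15 or more. Muc1 was distributed much alike in both sections, while 16.5% of RKP cells had no Muc4, against 58.1% of EKP cells.

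Cells with several membrane mucins were more frequent in RKP. After thinning, 23.5% of Epcam-high cells held 2 or more members in RKP and 6.19% in EKP, and without thinning 77.3% in RKP and 41.5% in EKP. Co-detection beyond depth was measured as the number of cells with both members over the number expected from both shares within 8 strata of total count. At 5 or more Epcam counts, Muc4 with Muc20 gave an observed over expected ratio of 1.1 in RKP (1.09 to 1.12, 24594 cells) and 1.38 in EKP (1.33 to 1.43, 2676 cells). Of Muc20-bearing cells, 94% also held Muc4 in RKP and 61.3% in EKP, where 83.5% and 41.9% of all Epcam-high cells of RKP and EKP did. Muc1 with Muc4 gave 1.05 in both sections, and Muc1 with Muc20 gave 1.09 in RKP and 1.1 in EKP. A ratio cannot pass 1 over the share of cells with the commoner gene, which leaves little room in RKP and for Muc1 in EKP, so the pairs and sections are not ranked. After thinning to 40 counts, which lowers the shares, Muc4 with Muc20 gave 1.27 (1.23 to 1.31) in RKP and 1.65 (1.43 to 1.9) in EKP, and Muc1 with Muc20 gave 1.25 (1.2 to 1.3) in RKP and 1.17 (1.04 to 1.31) in EKP.

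In Epcam-high cells, Muc16 was not found with Muc20 above expectation. The ratio was 0.714 in RKP (0.628 to 0.808, 248 cells) and 0.867 in EKP (0.742 to 1.01, 172 cells), and the EKP interval reached 1. Muc16 with Muc4 gave 0.954 (0.884 to 1.03) in RKP and 1.11 (1.04 to 1.19) in EKP, so that Muc16 cells of EKP held Muc4 slightly above expectation. At 0-1 Epcam counts, Muc16 with Muc20 gave 3.11 (1.01 to 7.25) in RKP, on 5 cells, and 3.56 (1.84 to 6.22) in EKP, on 12 cells. In EKP cells of 80 or more gene counts the value at 0-1 was 2.18 (0.45 to 6.38), on 3 cells. At 2-4 Epcam counts the pair gave 1.04 (0.474 to 1.97) in RKP, on 9 cells, and 1.34 (0.539 to 2.76) in EKP, on 7 cells. Over all cells of 40 or more counts it gave 1.1 (0.967 to 1.24) in RKP and 1.42 (1.23 to 1.64) in EKP, but there both genes rise with Epcam. Whether the low value belongs to the Epcam-high bin alone cannot be told from so few cells.

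Where Epcam was low, the ratios of the 3 pairs of Muc1, Muc4 and Muc20 were higher. At 0-1 Epcam counts, Muc4 with Muc20 gave 5.21 (4.78 to 5.67) in RKP and 4.45 (3.45 to 5.65) in EKP, Muc1 with Muc20 gave 3.84 in RKP and 2.43 in EKP, and Muc1 with Muc4 gave 2.94 in RKP and 2.24 in EKP. In that bin of EKP, Muc13 gave 5.97 (3.48 to 9.56) with Muc20, on 17 cells, and 4.13 (2.26 to 6.93) with Muc16, on 14. It gave 3.72 (2.81 to 4.83) with Muc4, on 56 cells, but 1.17 (0.848 to 1.58) with Muc1. In EKP cells of 80 or more gene counts these were 5.84 (2.14 to 12.7) with Muc20, on 6 cells, and 2.32 (0.479 to 6.79) with Muc16, on 3. With Muc4 the value there was 3.12 (1.88 to 4.88), on 19 cells. In RKP, Muc13 with Muc4 gave 1.57 (1.1 to 2.17), and 1.39 (0.928 to 1.99) in cells of 80 or more gene counts. High ratios in the low bin of EKP were thus not particular to Muc1, Muc4 and Muc20. Rarer genes also leave more room for a high ratio, and the low bin mixes cells of many classes, so a ratio above 1 there does not speak of one kind of cell.

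**Figure D3:**
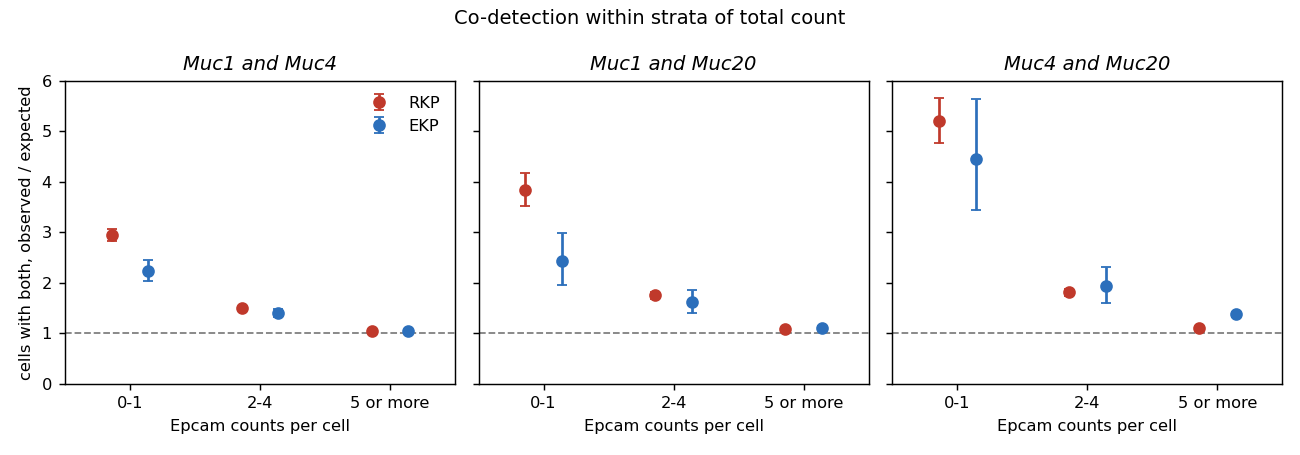
Cells in which both members of a pair were detected, as observed over expected within 8 strata of total gene count, by Epcam count, in the RKP section and the EKP section; bars are exact 95% intervals and the dashed line marks 1. All 3 pairs lay highest at 0-1 Epcam counts and near 1 at 5 or more, where Muc4 with Muc20 stood at 1.1 in RKP and 1.38 in EKP.

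Cells were also gated by marker lists that hold no member, such as 6 measured genes of 7 listed for epithelium (Epcam, Krt8, Krt19, Cdh1, Cldn4, Cldn7). Epithelial-gated cells, 69830 in RKP and 42840 in EKP, gave Muc4 at 17529 CPM in RKP and 5122 CPM in EKP, Muc1 at 14040 and 10588 CPM, Muc20 at 2285 and 511 CPM, and Muc16 at 47.7 and 171 CPM in RKP and EKP. The levels were close to those of the Epcam-high cells. Over fibroblast, pericyte and smooth muscle, endothelial, macrophage, neutrophil and T cell gates, Muc1 lay between 468 and 1907 CPM in RKP and between 334 and 1164 CPM in EKP, Muc4 between 419.8 and 1306 CPM in RKP and between 101 and 688 CPM in EKP, and Muc20 between 63.3 and 178 CPM in RKP and between 17.9 and 129 CPM in EKP. Muc1, Muc4 and Muc20 were thus lower in every one of these gates than in the epithelial one of the same section. Muc16 was not shown to be lower in all of them: relative to the epithelial gate it stood at 0.638 (0.131 to 1.87) in T cell-gated cells of RKP, on 3 counts, and at 0.715 (0.429 to 1.12) in neutrophil-gated cells of EKP, on 19.

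A gland-like gate, from genes of secretory epithelium (Ambp, Sftpd, Gc, Tm4sf4, Cdhr5, Agr2), held 289 cells in RKP and 1 in EKP. Its cells had the highest levels of 4 members among the gates: 19722 CPM of Muc1, 25058 of Muc4, 5203 of Muc20 and 398 of Muc13. Over epithelial-gated cells of RKP these were 1.4-fold (1.31 to 1.51) for Muc1, 1.43-fold (1.34 to 1.52) for Muc4, 2.28-fold (1.97 to 2.62) for Muc20 and 19.3-fold (10.7 to 32.2) for Muc13, the last on 15 counts. A wider gate, chosen after seeing the data, in which a list holding Krt8 and Msln set no limit, took in 4639 RKP cells and still 1 EKP cell. It gave 20109 CPM of Muc1, 25882 of Muc4, 3831 of Muc20, 159 of Muc13 and 5.51 of Muc16, the last 0.114 of the epithelial level (0.0369 to 0.267). Gland-like cells of RKP were thus rich in every member but Muc16.

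A squamous gate (Krt5, Dsc3, Calm4, Krt79), with 3693 cells in RKP and 1 in EKP, gave the opposite picture. Its cells held 14753 CPM of Epcam, but 220.3 CPM of Muc1, 28.2 CPM of Muc4 and 5.29 CPM of Muc20, on 125, 16 and 3 counts. Relative to epithelial-gated cells of RKP these were 0.0157 (0.0131 to 0.0187), 0.00161 (0.00092 to 0.00261) and 0.00231 (0.000477 to 0.00676), while Epcam stood at 0.279. All 3 also lay below the endothelial gate of RKP, at 468, 419.8 and 88.1 CPM. Squamous-gated cells were therefore Epcam-bearing cells nearly without membrane mucins.

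Without gland-like and squamous cells, by the wider gate, the log2 ratios of RKP over EKP at 5 or more Epcam counts were 1.74 for Muc4, 2.06 for Muc20, 0.34 for Muc1 and -1.69 for Muc16, against 1.77, 2.10, 0.36 and -1.76 with them. These 4 differences were thus about as large without classes found almost only in RKP. The value of Muc13 changed sign, at -0.11 without them and 0.54 with them.

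**Figure D4:**
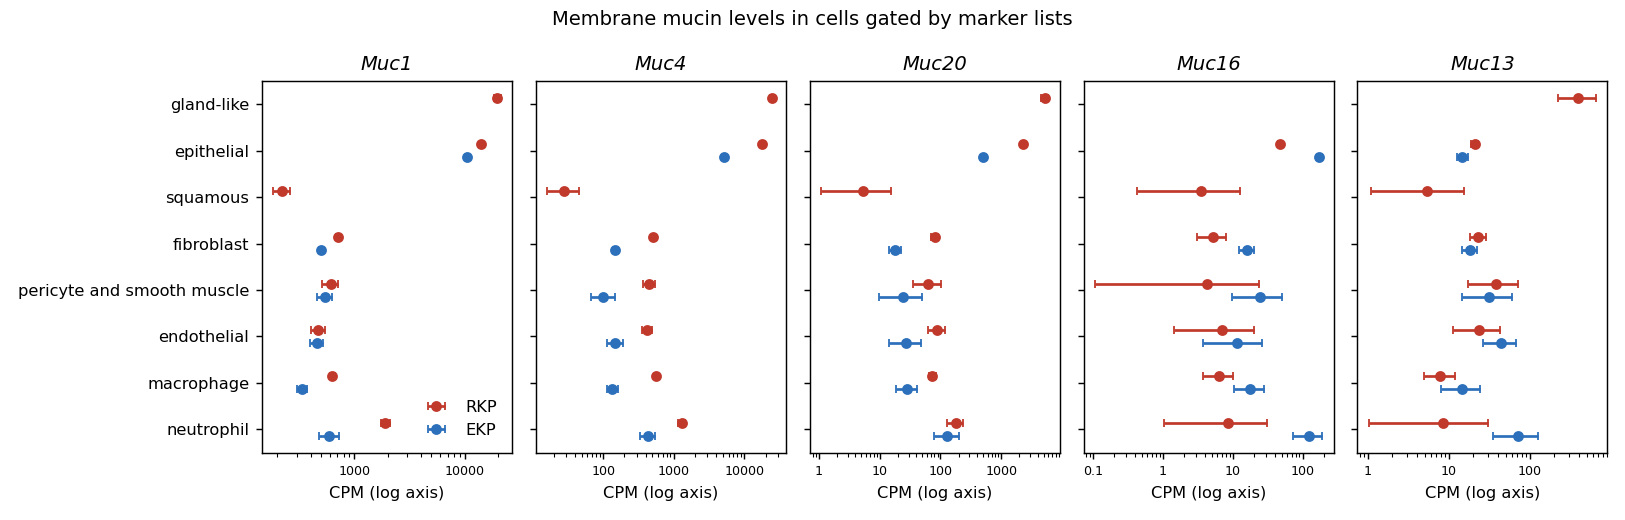
Level of each membrane mucin (CPM, log axes that differ between panels) in cells gated by marker lists, in the RKP section and the EKP section; bars are exact 95% Poisson intervals, and a class with no count, or with under 50 cells in a section, has no point. Muc1, Muc4 and Muc20 were highest in gland-like cells, at 19722, 25058 and 5203 CPM, and lowest, within RKP, in squamous ones, and Muc13 reached 398 CPM in gland-like cells of RKP against 20.7 in epithelial ones.

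Muc13, an intestinal mucin, had the largest share of its counts in low-count cells among the members. Cells with under 40 gene counts held 2.53% of its counts in RKP and 64.5% in EKP. They held 1.08% of all gene counts in RKP and 4.75% in EKP. In EKP they also held 31.8% of Muc16 counts, 14.2% of Muc20, 7.61% of Muc4 and 2.5% of Muc1. A raised share in low-count cells of EKP was thus not particular to Muc13. In EKP cells of under 20 gene counts, Muc13 stood at 1045 CPM, Muc16 at 1014 and Muc20 at 922, and a negative control probe averaged 37.5 CPM. These members were also close to each other in EKP cells of 20-39 gene counts, at 658, 669.8 and 584 CPM. In EKP cells with 0-1 Epcam counts they stood at 31.5, 37.5 and 32.7 CPM. At 5 or more Epcam counts they differed widely, at 11.2, 159 and 494 CPM. Over cells with 40 or more counts the ratio of RKP over EKP was 0.847 (0.765 to 0.938) for Muc13, and over cells with 80 or more it was 1.18 (1.05 to 1.33). The direction of Muc13 over whole sections thus turned with the filter on low-count cells. Muc16 kept its direction, at 0.289 (0.269 to 0.31) and 0.311 (0.289 to 0.334).

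In RKP, Muc13 went with Cpa3. Among Epcam-high RKP cells, the genes found with Muc13 most above expectation were Cpa3, the mast cell carboxypeptidase, at 24.8 times (61 cells observed, 2.46 expected), the steroid enzyme gene Cyp11a1 at 13.6 times (52 cells) and Gzmb, a granzyme of cytotoxic lymphocytes, at 11.6 times (48 cells). Cells with 2 or more Cpa3 counts, singled out after this was seen, numbered 1392 in RKP and 144 in EKP. In RKP they held 977 CPM of Muc13 (857 to 1109) and 28.2% of its counts in cells of 40 or more; those with 0-1 Epcam counts held 786 CPM (648 to 945). Cells without Cpa3 held 135 CPM (112 to 162) if gland-like by the wider gate and 11 CPM (10.1 to 12.1) otherwise. In EKP the Cpa3 cells held 3 counts of Muc13, or 175 CPM (36 to 510.3). Muc13 in RKP was thus high in a pair of small groups of cells, those with Cpa3 and the gland-like ones, while 55.1% of its counts lay thinly over the remaining cells without Cpa3.

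The genes most often found with the other members among Epcam-high cells, out of those in at least 1% of them, were as follows. For Muc20, they were B4galnt2, a glycosyltransferase gene, at 1.62 times expectation, 5330417C22Rik at 1.58 and the phosphate transporter gene Slc34a2 at 1.54 in RKP, and Slc34a2 at 2.56, 5330417C22Rik at 2.45 and the matrix gene Comp at 2.15 in EKP. Slc34a2 and 5330417C22Rik were thus among the first 3 in both sections. For Muc4, they were Ambp at 1.19, Oit1 at 1.18 and the antimicrobial lectin gene Reg3g at 1.17 in RKP, and the gel-forming mucin gene Muc5ac at 1.42, Muc20 at 1.38 and Ly6g6c at 1.35 in EKP. For Muc1, they were Reg3g at 1.18, the trefoil factor gene Tff2 at 1.17 and Oit1 at 1.16 in RKP, and Slc34a2 at 1.13, 5330417C22Rik at 1.11 and the claudin gene Cldn2 at 1.11 in EKP. The ratios of such widespread genes cannot lie far above 1.

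For Muc16, the leading genes were Cyp11a1 at 2.18 (35 cells), Insm1, a transcription factor of neuroendocrine cells, at 2.05 (37 cells) and Aif1l at 1.66 in RKP, and A330076H08Rik at 1.44 (60 cells), Cyp11a1 at 1.38 and the retinol-binding Rbp2 at 1.37 in EKP. For Muc13 in EKP they were Mapk10, Sox17 and Chga, on 5, 7 and 4 cells, too few to read.

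Across 17 class and section profiles, which share libraries and depth, the likeness of members was described by Pearson's r of log2(CPM + 10). Muc4 and Muc20 gave 0.96, Muc1 and Muc4 0.93 and Muc1 and Muc20 0.85, while Muc16 gave 0.31 with Muc1, 0.15 with Muc4 and 0.03 with Muc20. The genes most alike were Gpa33, Ctse and Muc4 for Muc1 (0.95, 0.95 and 0.93), Ctse, Prom1 and Cldn2 for Muc4 (0.97, 0.97 and 0.96), Prom1, Gabrp and Muc4 for Muc20 (0.97, 0.97 and 0.96), Muc5b, A330076H08Rik and Fam183b for Muc16 (0.84, 0.80 and 0.75), and Tff3, Ttc36 and Tff2 for Muc13 (0.85, 0.84 and 0.82). Without the profiles of the list that holds Krt8 and Msln, the leading genes were Cldn7 for Muc1 (0.98), Prom1 for Muc4 (0.99), Muc4 for Muc20 (0.98), Scg2 for Muc16 (0.86) and Tm4sf20 for Muc13 (0.87). Cldn7 is a gene of the epithelial gate, which itself forms the profiles, so its value is not read. Muc4 and Muc20 were among each other's nearest genes in 15 profiles, Prom1 was near both, and the genes nearest Muc16 changed with the profiles used.

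Of 16 other mucins, mucous cell genes, binding partners and neighbouring apical genes, 6 passed 2-fold toward RKP and 3 toward EKP at 5 or more Epcam counts, where 16.6% and 22.7% of all genes kept did. Their median log2 ratio was 0.50, against -0.24 over all genes kept. The balance differed with the cells taken: 6 and 4 passed it at 2-4 Epcam counts (median 0.26), 2 and 7 at 0-1 (median -0.49), and 4 and 8 over whole sections (median -0.98). The values that follow are those at 5 or more Epcam counts. The membrane mucin Muc3a stood at 273 CPM in RKP and 8.04 CPM in EKP, a ratio of 34 (27.7 to 42.2). Agr2, a mucin-folding disulphide isomerase, stood at 558 CPM in RKP and 41.3 CPM in EKP, Tff2 at 148 and 12.2 CPM and Tff3 at 17.3 and 3.37 CPM. Cldn2 stood at 11474 CPM in RKP and 1087 CPM in EKP, and Prom1, an apical protrusion protein, at 23578 CPM in RKP and 7097 CPM in EKP. Of the gel-forming mucins, 3 lay toward EKP, with Muc2 at 29 CPM in RKP and 261 CPM in EKP, Muc5ac at 8.98 and 72.2 CPM and Muc19 at 4.33 and 13.5 CPM. Muc19 was not on the list of partners as first set. Muc6 had 27 counts in RKP and 57 in EKP, fewer in RKP than the highest negative control probe, and was not past 2-fold against that probe; Tff3 in EKP also lay below it. Muc5b (31 CPM in RKP and 20.5 CPM in EKP), Muc15 (8.98 and 8.13), Tff1 (36.1 and 39.8), Spdef (23.1 and 17.5), Msln and Egfr, the epidermal growth factor receptor (4805 and 2791), were under 2-fold apart. By direction alone, Muc4 and Muc20 thus stood with Muc3a on the RKP side, and Muc16 stood with the gel-forming Muc2 and Muc5ac on the EKP side. The membrane mucin Muc15, under 2-fold apart, stood on neither side. Muc3a, Agr2, Tff2 and Tff3 were not compared without gland-like cells, which were found almost only in RKP and for which Agr2 is a gate gene.

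Spread within a section was gauged by cutting each file into 10 successive parts of equal cell number. The parts are not replicates, and what the order of cells in a file follows is not stated. At 5 or more Epcam counts, Muc4 had a lowest, median and highest level of 13391, 15629 and 18948 CPM over the RKP parts and 1965, 4126 and 7935 CPM over the EKP parts. Muc20 had 1464, 2078 and 2571 CPM in RKP and 238, 354 and 933 CPM in EKP. Muc16 had 36.2, 46.9 and 73.6 CPM in RKP and 119.5, 148 and 193 CPM in EKP. The parts of both sections did not overlap for these 3 members. The share of all genes without overlap was not counted, so this is not read as particular to them. Muc1 overlapped, at 9735, 12845 and 16215 CPM in RKP and 6433, 9580 and 13113 CPM in EKP, as did Muc13. Highest over lowest was 1.42 over the parts of RKP and 4.04 over those of EKP for Muc4, and 1.76 in RKP and 3.92 in EKP for Muc20, so both genes were less even in EKP along the file as well as between cells. Over all cells, Epcam itself differed 3.21-fold between parts of RKP and 12.9-fold between parts of EKP. Muc16 was there the one member whose sections did not overlap, again without a count over all genes.

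**Figure D5:**
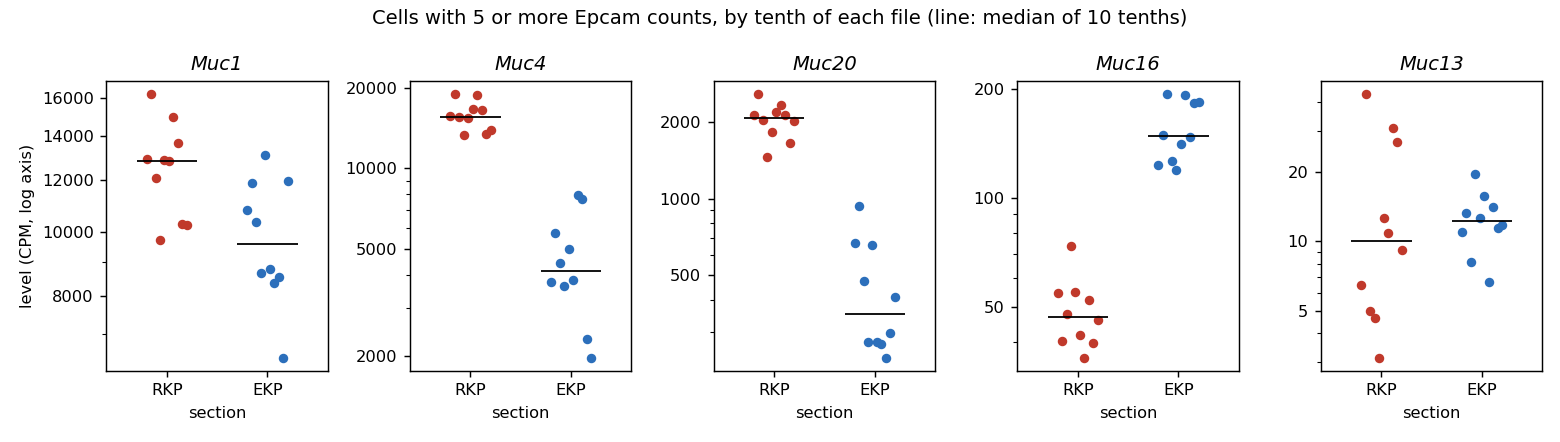
Level of each membrane mucin (CPM, log axes that differ between panels) in cells with 5 or more Epcam counts, over 10 successive parts of each file; points are parts, set apart sideways so that each can be seen, and lines are medians, with RKP left of EKP. Muc4, Muc20 and Muc16 did not overlap between sections, and Muc1 and Muc13 did. The share of all genes without overlap was not counted.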

How the data were processed

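RNA was measured by Xenium In Situ in 1 RKP and 1 EKP section. The authors deposited raw transcript counts per feature and segmented cell, with no normalization; per the file headers the Xenium software version is unknown, and per the submitters' processing notes Seurat 4.4.0 was used, in a role not given. The sources used here do not give segmentation, transcript quality limits or doublet handling, and no doublets were called. Segmentation can assign a transcript to a neighbouring cell.

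From these counts, levels were computed with Python 3.11.15, numpy 2.4.6, scipy 1.17.1 and pandas 2.3.3 as counts over the summed gene counts of the same cells (CPM). A gene was kept in a comparison where, in at least 1 section, it had more counts than every negative control probe, and for calls of 2-fold a lower count was set to that of the highest such probe. Intervals at 95% are exact, conditional binomial for ratios and Clopper-Pearson for shares; counts of 1 section are not independent samples of a tumour. Cells with 40 or more gene counts were thinned at random to 40 for detection. A class gate needed 2 genes and 4 counts of a list and 2 times the counts of any other list. Lists with a gene in common, as the one with Krt8 and Msln, narrow the epithelial and gland-like gates, and a gate without that limit was added. That list rests on 3 measured genes, 1 of them shared, so its cells were given no name.

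A class with under 50 cells in a section was not used. The text names all 5 members, Epcam, the measured genes of a mucin partner list, the 3 genes most co-detected with each member in each section and the 3 most alike over class profiles. Krt8, Cdh1, Cpa3 and gate markers were named beyond this. So was Muc19, which was not on the partner list as first set but is counted among its 16 genes. The members and lists were chosen with earlier results of these data known. Alternatives were other scalings, cell filters of 20 and 80, Epcam relative to gene counts, background subtraction, other thinning depths, 16 strata and other gates. The steps were tested on simulated data.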

Additional observations from a re-analysis of the deposited data

How the results depend on the processing

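At 2-4 and 5 or more Epcam counts, the counts of members 2-fold apart were the same under every alternative run. Over whole sections, 1 member in place of 2 was 2-fold higher in EKP with filters of 40 or more and of 80 or more gene counts; with the latter the log2 ratio of Muc13 was 0.24, reversed from -1.64. At 0-1 Epcam counts, 0 members in place of 2 were 2-fold higher in RKP with a filter of 20 or more gene counts, and 1 with every cell weighted alike; 2 in place of 1 were 2-fold higher in EKP with either setting, and also without cells with 2 or more Cpa3 counts, a setting chosen after seeing the data. Detection of Muc4 at 0-1 Epcam counts, 2.07 times as frequent in RKP as in EKP, turned to 0.867 when cells were thinned to 20, which admits shallower cells; Muc20 there turned to 0.617, where it was 1.89. At 2-4 Epcam counts, Muc13 was detected 0.724 times as often in RKP, with 0.452 on thinning to 20 and 1.25 on thinning to 80, and Muc16 0.189 times, with 0.0886 on thinning to 20. At 5 or more Epcam counts the log2 ratio ranged over the alternatives from 1.71 to 1.78 for Muc4, 2.04 to 2.16 for Muc20 and 0.30 to 0.41 for Muc1. It ranged from -1.85 to -1.69 for Muc16 and from -0.11 to 0.65 for Muc13. The ends at -1.69 and -0.11 came from leaving out gland-like and squamous cells, a setting added after seeing the data. Counts per cell in place of CPM gave a whole-section log2 ratio of 1.07 for Muc1, past 2-fold, where it was 0.55 with CPM. No paired analysis was possible because each group has 1 section. With bins of Epcam relative to gene counts, Muc13 in the middle bin gave -0.29 where it was 0.30. Depth limits Muc13, with 307 counts in RKP and 129 in EKP at 5 or more Epcam counts, and Muc16, with 891 and 1843.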

Other observations

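Cells with almost no Epcam but with the keratin Krt8 held little Muc1, Muc4 and Muc20. Among cells with 0-1 Epcam counts and 5 or more Krt8 counts, 14558 in RKP and 9953 in EKP, Muc1 stood at 805 CPM in RKP and 1335 CPM in EKP, Muc4 at 498 CPM in RKP and 212 CPM in EKP, and Muc20 at 77 CPM in RKP and 27.8 CPM in EKP. The cells with 0-1 counts of both genes gave 639.7 CPM in RKP and 398 CPM in EKP for Muc1, 483 CPM in RKP and 162 CPM in EKP for Muc4, and 70.7 CPM in RKP and 30.9 CPM in EKP for Muc20. Levels of Muc1, Muc4 and Muc20 at high Krt8 were thus far below those at high Epcam, 13073 CPM in RKP and 10168 CPM in EKP for Muc1. At high Krt8, Muc16 stood at 6.92 CPM in RKP and 56 CPM in EKP, against 47.1 and 159 CPM at high Epcam. Muc13 stood at 15.7 CPM in RKP and 20 CPM in EKP, against 16.2 and 11.2 CPM at high Epcam. Muc13 in EKP was thus not lower at high Krt8. The order did not follow Krt8 throughout: cells with 2-4 Krt8 counts held 877 CPM of Muc4 in RKP and 341 CPM in EKP, and 135 CPM of Muc20 in RKP and 44 CPM in EKP, more than either the cells with 5 or more or those with 0-1. This split was chosen after seeing the data.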
